A study of Mus musculus with 6 samples.

Results

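The clustered histone genes were followed across the cell types and genotypes of the mouse retina at embryonic day 14. A gene was included where its symbol began with Hist1h, Hist2h, Hist3h or Hist4h, which gave 69 of the 27998 genes in the deposited table. The 69 gene identifiers carry 68 symbols, since Hist2h2bb stands on 2 identifiers. By the names, 55 belong to the Hist1 cluster on chromosome 13, 11 to the Hist2 cluster on chromosome 3, 2 to the Hist3 cluster on chromosome 11 and 1, Hist4h4, lies on chromosome 6. By symbol, 6 are genes of the linker histone H1, 19 of H2A, 19 of H2B, 12 of H3 and 13 of H4. The annotation calls 1 of the H2A members, Hist1h2al, a processed pseudogene, and 1 of the Hist2h2bb identifiers (ENSMUSG00000050936) a lincRNA. It places Hist1h2al at chr13:51202727-51203065, outside the span of the other placed Hist1 genes, and gives no position for Hist1h2bm and Hist1h2bh. The 11 replacement histone genes that lie outside the clusters, such as H3f3a and H2afz, were used for comparison.

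Histones are the proteins on which DNA is wound: H2A, H2B, H3 and H4 form the core of the nucleosome, and H1 binds the DNA between cores. Most clustered genes are transcribed during S phase, when new DNA has to be packed, and their mRNAs end in a short stem-loop that is bound by Slbp, in place of a poly(A) tail. Some of them can also be read through to a downstream polyadenylation signal, and such tailed transcripts are known from cells that have left the cell cycle. Many replacement histones, though not all, are made throughout the cycle and in neurons, from ordinary polyadenylated mRNAs. In the retina, dividing progenitors give rise to neurons that leave the cycle for good.

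Cells of E14 retinas were read in 6 libraries by 10x Genomics droplet sequencing of the 3′ ends of mRNA (version 2 chemistry; the labels name poly(A) RNA), 2 libraries for each of 3 genotypes. The first genotype was Bax het with Atoh7 null, the second Bax null with wild-type Atoh7, and the third Bax null with Atoh7 null, called double null here; none of the 3 had both genes intact. Atoh7 encodes a transcription factor needed for the generation of ganglion cells, and Bax a mitochondrial effector of programmed cell death. The 67050 cells carried the authors' labels as retinal progenitor cells (RPCs), neurogenic cells, retinal ganglion cells, cones and horizontal cells, with 9269 to 14730 cells in each library. Nothing in the labels says whether 2 libraries of a genotype came from separate litters, so the p-values measure the spread between these libraries, which may be technical.

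The libraries differed in ways that touch every comparison of genotypes below. The Bax null libraries held 63085055 and 66594431 UMIs (unique molecular identifiers, each counting 1 captured mRNA molecule), against 22463515 to 33415227 in the other 4, and mitochondrial genes took 3.8% and 3.9% of their UMIs against 1.06% to 1.15%. The Bax null genotype and this difference between libraries cannot be told apart. Atoh7 had no UMI in the 4 Atoh7 null libraries and 5.96 and 6.88 counts-per-million UMIs (CPM) in Bax null. The 2 Bax het libraries had 144 and 108 CPM of Bax itself. The Bax null libraries had 17.1 and 15 CPM, and double null libraries 1 and 2 had 47.7 and 11 CPM, so that the library labelled double null 1 went partly against its label. The 2 double null libraries shared 2596 cell barcodes, 17.6% and 22.0% of their cells, and 89.4% of the shared barcodes carried the same cell type in both. All other pairs of libraries shared between 126 and 223. Results were therefore computed with and without the cells of shared barcodes.

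The labels were checked against marker genes. All 10 ganglion cell markers were higher in ganglion cells than in RPCs and all 7 progenitor markers lower, by the test described below. The summed cone markers stood at 3215 to 3930.2 CPM in cones and 16.9 to 40.5 CPM in RPCs. Cells labelled horizontal held the horizontal list at 1196 to 2072 CPM and the amacrine list at 1045 to 1628 CPM. Progenitor markers were not at 0 in ganglion cells: their sum there was 1043 to 1355 CPM in the 4 Atoh7 null libraries and 317 to 481 CPM in Bax null, against 6190.4 to 8744 CPM in RPCs. The haemoglobin and other erythroid markers were near the same level in all types of a library, at 853 to 2011 CPM in Bax null and 3.63 to 268 CPM in the others.

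The sequence that most of these genes share lies at the end of the message. In the GENCODE gene models on GRCm38, which were found for 67 of the 69 genes, 43 contained the histone stem-loop of 16 bases, searched on the sense strand by its stem and loop pattern, and 14 had the polyadenylation signal AATAAA in their last 50 bases. Both were present in 10 models, the stem-loop alone in 33, the signal alone in 4 and neither in 20. Some of the 20 are short, such as Hist1h2bl (381 bases) and Hist1h4k (312 bases). Whether these models reach the end of the message was not tested, so a missing feature may lie in the annotation. The windows below give the stem-loop in capitals with 5 bases on each side, 5′ to 3′ on the sense strand, for 4 genes whose models run on to a signal and 4 whose models do not.
Hist3h2ba: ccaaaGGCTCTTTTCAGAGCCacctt
Hist3h2a: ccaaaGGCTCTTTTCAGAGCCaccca
Hist2h3c1: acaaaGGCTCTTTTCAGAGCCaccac
Hist1h1c: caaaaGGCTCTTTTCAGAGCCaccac
Hist1h1e: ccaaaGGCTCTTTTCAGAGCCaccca
Hist1h4i: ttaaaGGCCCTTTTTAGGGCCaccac
Hist2h2ac: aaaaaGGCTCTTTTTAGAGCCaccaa
Hist1h3c: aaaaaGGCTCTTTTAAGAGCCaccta
The stem-loop of Hist3h2ba (H2B) lies at chr11:58949349-58949364 on the plus strand and that of its neighbour Hist3h2a (H2A) at chr11:58955172-58955187, also on the plus strand; the stem-loop letters are the same in both. The models of Hist3h2ba (chr11:58948920-58949533), Hist3h2a (chr11:58954685-58956830), Hist2h3c1 (chr3:96246685-96248509, an H3 gene) and Hist1h1c (chr13:23738808-23740367, a linker histone) run on for 169, 1643, 1167 and 840 bases after it. In Hist2h2ac (an H2A gene, chr3:96220361-96220880) and Hist1h3c (an H3 gene, chr13:23744973-23745602), both on the minus strand, the model ends 57 and 74 bases after the stem-loop. The models of Hist1h1e and Hist1h4i, also without a signal at the end, run on for 1153 and 330 bases. A model without the signal therefore need not end near the stem-loop. Most members are single-exon genes: 61 of the 67 models had 1 exon.

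Upstream of the genes, the promoter windows of RefSeq (GRCm38.p6, 250 bases before to 50 after the annotated start) matched 63 of the 69 members. TATAAA, on either strand, was in 35 of these 63 windows (55.6%) and in 14.1% of the 26963 windows of other genes. CCAAT, on either strand, was in 54 (85.7%), against 37.8% of the others. A match describes the letters and not the binding of a factor. The 250 bases before the start are shown for 4 genes that differ in their pattern over cell types, with both motifs in capitals: Hist3h2ba (chr11:58948661-58948910, plus strand), Hist2h3c1 (chr3:96246435-96246684, plus strand), Hist1h1b (chr13:21780626-21780875, minus strand) and Hist1h1c (chr13:23738557-23738806, plus strand).
Hist3h2ba: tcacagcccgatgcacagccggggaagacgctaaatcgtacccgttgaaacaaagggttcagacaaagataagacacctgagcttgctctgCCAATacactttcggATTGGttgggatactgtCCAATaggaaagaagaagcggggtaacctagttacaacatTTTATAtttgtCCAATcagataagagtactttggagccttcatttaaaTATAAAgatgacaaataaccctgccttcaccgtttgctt
Hist2h3c1: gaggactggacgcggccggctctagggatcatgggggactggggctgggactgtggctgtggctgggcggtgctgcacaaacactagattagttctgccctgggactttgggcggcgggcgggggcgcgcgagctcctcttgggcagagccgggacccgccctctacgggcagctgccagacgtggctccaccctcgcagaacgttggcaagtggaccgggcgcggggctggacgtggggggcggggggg
Hist1h1b: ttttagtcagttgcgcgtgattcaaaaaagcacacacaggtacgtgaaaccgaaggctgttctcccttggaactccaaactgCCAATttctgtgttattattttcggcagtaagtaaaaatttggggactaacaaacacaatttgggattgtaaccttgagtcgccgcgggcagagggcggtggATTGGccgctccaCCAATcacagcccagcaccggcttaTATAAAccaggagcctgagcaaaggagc
Hist1h1c: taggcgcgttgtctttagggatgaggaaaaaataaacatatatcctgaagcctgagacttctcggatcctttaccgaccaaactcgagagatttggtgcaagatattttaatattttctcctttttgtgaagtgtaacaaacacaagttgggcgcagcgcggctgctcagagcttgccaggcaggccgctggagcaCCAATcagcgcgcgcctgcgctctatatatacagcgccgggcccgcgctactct
The stretch before Hist3h2ba held 2 TATAAA and 4 CCAAT matches and that of Hist1h1b held 1 and 3. Hist1h1c had 1 CCAAT match, and Hist2h3c1 had none of either.

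The first question was how the histone genes are read in cells that divide and in cells that have left the cycle. In ganglion cells most histone genes were lower than in RPCs of the same library, and 4 were higher: the neighbours Hist3h2ba and Hist3h2a and the H3 genes Hist2h3c1 and Hist2h3c2. UMIs were summed per library and cell type and tested with a block for the library. A gene was called at an adjusted p under 0.05 and a fold of at least 2. The filter on low counts left 41 of the 69 members, so that 28 were not tested. Of the 41, 32 were lower in ganglion cells (14.9% of all 11315 genes tested were called lower), 4 were higher (15% of all genes) and 5 were not called. The median log2 fold change over the 41 was -2.53, against -0.02 over all genes. Without the filter 67 members were tested and 50 were lower. The authors' cell types were made from the same transcriptomes, and 17 of the 69 members (24.6%) were among the genes the authors used to order the cells, against 9.40% of all genes. These comparisons therefore describe the labelled cells and are no independent test.

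Hist3h2ba stood in RPCs at 194 and 189 CPM in the Bax het Atoh7 null libraries, 148 and 148 in the Bax null libraries and 200.5 and 174 in the double null libraries. In ganglion cells it stood at 852 and 962 CPM in the Bax het Atoh7 null libraries, 888 and 880.4 in the Bax null libraries and 859 and 910.5 in the double null libraries. The lowest ganglion cell value was far above the highest progenitor value, and the cell types did not overlap. The log2 fold change was 2.30 ± 0.07 (SE; adjusted p = 1.45e-22), which is 4.92-fold. Hist3h2a, which begins downstream of it on the same strand, stood at 34.0 to 55.7 CPM in RPCs and 303 to 420.1 CPM in ganglion cells, a log2 change of 2.91 ± 0.10 (SE; adjusted p = 3.28e-21).

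The H3 genes that rose were read at a much lower level. Hist2h3c1 went from 0.803 to 2.31 CPM in RPCs to 5.82 to 16.3 CPM in ganglion cells, a log2 change of 2.63 ± 0.18 (SE; adjusted p = 4.33e-14). Hist2h3c2 went from 0.231 to 1.25 to 5.87 to 20.7 CPM, a log2 change of 4.22 ± 0.24 (SE; adjusted p = 1.09e-15). For both genes every ganglion cell value lay above every progenitor value. The Hist2h3c1 transcript shares all its 50-base stretches with the annotated gene Gm20634 and Hist2h3c2 shares 63.5%, so the split of UMIs between them is uncertain. Over the last 300 bases, the part nearest to a 3′ tag, the part shared with other genes is 100% in Hist2h3c1 and 0% in Hist2h3c2.

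Linker histone genes behaved in more than one way. Hist1h1b was 84.5 and 80.1 CPM in the Bax het Atoh7 null libraries, 98.5 and 84.3 in the Bax null libraries and 79.8 and 100.2 in the double null libraries in RPCs and 4.95 to 17.1 CPM in ganglion cells, a log2 change of -3.41 ± 0.16 (SE; adjusted p = 2.35e-17). Hist1h1a, Hist1h1d and Hist1h1e were also lower, with log2 fold changes of -2.90, -2.69 and -1.77. Hist1h1c was not called: it was 28.2 to 109 CPM in RPCs and 91.4 to 195 CPM in ganglion cells, and its log2 fold change of 0.89 ± 0.23 (SE; adjusted p = 0.000951) is below the 2-fold limit. Its CPM was higher in ganglion cells in all 6 libraries, by 1.03 to 3.39 times.

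Most of the genes that were lower encode core histones. The 3 lowest were Hist2h2ac (H2A) with a log2 change of -3.60 ± 0.16 (SE; adjusted p = 5.23e-18), Hist1h2bk (H2B) with -3.59 and Hist1h3c (H3) with -3.52. Hist2h2ac stood at 10.7 to 33.3 CPM in RPCs and 0.733 to 3.66 CPM in ganglion cells. Of the members with the highest levels, Hist1h2ae (H2A) fell by 3.08 on the log2 scale, Hist1h3e (H3) by 2.39 and Hist1h4i (H4) by 1.27. Hist1h4i kept 25.6 to 42.2 CPM in ganglion cells against 52.5 to 101 CPM in RPCs. Several named members are uncertain because their transcripts share 50-base stretches with other genes. The shared part is 74.2% in Hist1h2bk, 73.4% in Hist1h3e, 82.8% in Hist1h2bl and 89.4% in Hist2h2aa1. Over the last 300 bases, the part nearest to a 3′ tag, it is 100% in Hist1h1e, whose model overlaps that of Hist1h2be on the same strand, and 70.1% in Hist1h2ab.

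The other 4 genes that were not called lay between these groups. Hist2h2be (H2B) had a log2 change of -0.80 ± 0.12 (SE; adjusted p = 3.33e-07), lower but by less than 2-fold. Hist1h2bc (H2B) had 0.43 ± 0.11 (SE; adjusted p = 0.00109), at 46.3 to 79.0 CPM in RPCs and 59.6 to 116 CPM in ganglion cells. The H4 genes Hist4h4 and Hist2h4 had -0.18 ± 0.23 (SE; adjusted p = 0.461) and 0.26 ± 0.30 (SE; adjusted p = 0.441), and neither is shown to differ. By class, 4 of 5 tested H1 genes were lower. Of the H2A genes 8 of 9 were lower and 1 higher, of the H2B genes 9 of 12 lower and 1 higher, of the H3 genes 7 of 9 lower and 2 higher, and of the H4 genes 4 of 6 lower. By cluster name, 29 of 31 tested Hist1 genes (Hist1h2al among the 29) were lower and none higher, whereas both Hist3 genes and 2 of 7 tested Hist2 genes were higher.

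**Figure D1:**
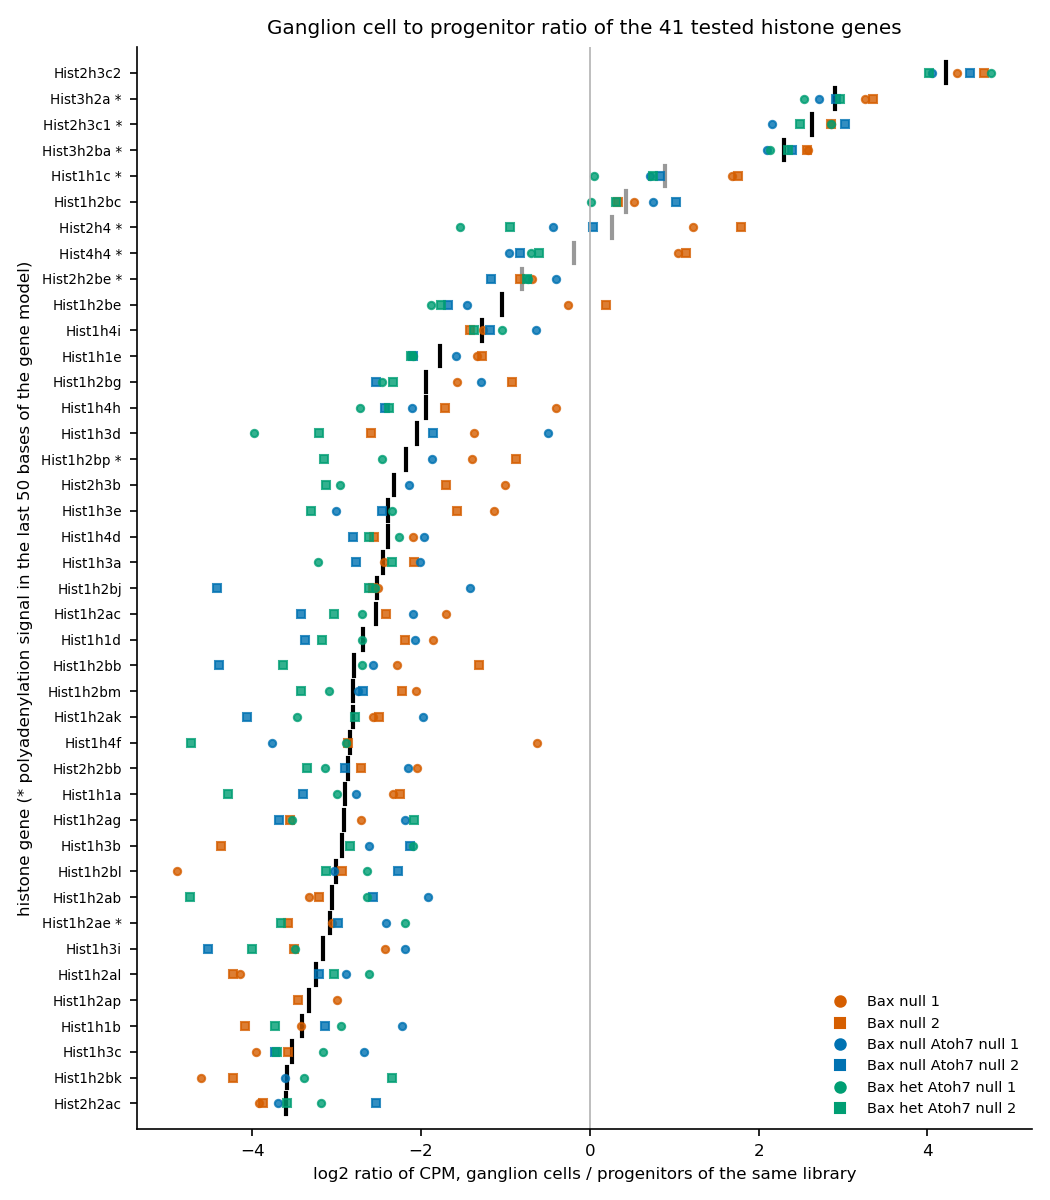
Each row is 1 of the 41 tested histone genes; points are the log2 ratio of CPM between ganglion cells and progenitors of the same library (6 libraries, coloured by genotype; a library with no UMI in ganglion cells has no point), and bars are the fitted log2 fold changes, black where called and grey where not. Asterisks mark gene models with a polyadenylation signal in their last 50 bases; 4 genes stand on the right, 5 in grey near the middle and 32 on the left.

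The calls were then set beside the end of the gene model, a feature the choice of genes did not use. Of the 14 members with a polyadenylation signal at the end, 9 were tested: 3 were higher in ganglion cells, 2 lower and 4 not called. The 55 others include 2 members with no gene model, for which the signal is unknown. Of the 55, 32 were tested: 1 was higher (Hist2h3c2), 30 were lower and 1 was not called (Hist1h2bc). Among those lower was Hist1h2bm, which has no model. Among the 33 models with a stem-loop and no signal, 22 were tested, and 21 were lower and 1 higher. Among the 10 with both, 7 were tested, and 3 were higher, 1 lower and 3 not called. These are counts over an annotation that need not hold every end in use, with no test of the difference.

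Cones and horizontal cells, which have also left the cycle, were compared with RPCs in the same way. In cones 32 of the 41 tested members were lower (13.5% of all genes) and 4 higher (12.5% of all genes), with a median log2 fold change of -2.79 against -0.01 for all genes. The lowest were Hist1h2ab (-5.34), Hist1h4f (-4.51) and Hist1h2bl (-4.45), and the highest were Hist2h3c2 (2.48), Hist3h2a (2.40) and Hist2h3c1 (2.0). In horizontal cells 33 were lower (13.1% of all genes) and 4 higher (13.1% of all genes), with a median of -2.19 against -0.03. There Hist1h2al (-5.11; the annotated pseudogene), Hist1h2bl (-3.47) and Hist1h3b (-2.98) were lowest, and Hist2h3c2 (3.11), Hist3h2a (2.41) and Hist3h2ba (2.29) highest. Hist3h2ba stood at 579.8 to 724 CPM in cones and 839 to 1019 CPM in horizontal cells, above all progenitor values. The 3 comparisons share their progenitor sums, so they are not independent of each other.

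Neurogenic cells, which stand between progenitors and neurons, were close to RPCs. Of the 41 tested members 1 was higher (5.54% of all genes), Hist2h3c2 with a log2 change of 1.06 ± 0.33 (SE; adjusted p = 0.0069), and 0 were lower (4.14% of all genes; 5 had an unadjusted p under 0.05 in edgeR, and DESeq2 called 0). Hist2h3c2 fell below the 2-fold limit without Bax null library 2 (0.88), without Bax het Atoh7 null library 1 (0.87) and in the 4 Atoh7 null libraries alone (0.92). With the adjusted p alone and no fold limit, 6 were higher and 3 lower. Against ganglion cells, 32 members were higher in neurogenic cells (11.8% of all genes) and 4 lower (11.9% of all genes). The highest were Hist1h2bk (3.71), Hist1h1b (3.59) and Hist1h3c (3.53). Hist2h3c2 (-3.16), Hist3h2a (-2.31) and Hist2h3c1 (-2.14) were lowest. Hist3h2ba stood at 206 to 282 CPM in neurogenic cells, above its value in RPCs and below its value in ganglion cells of the same library in all 6 libraries. For Hist1h1b the neurogenic cells stood at 91.0 to 124 CPM, near the 79.8 to 100.2 CPM of RPCs.

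**Figure D2:**
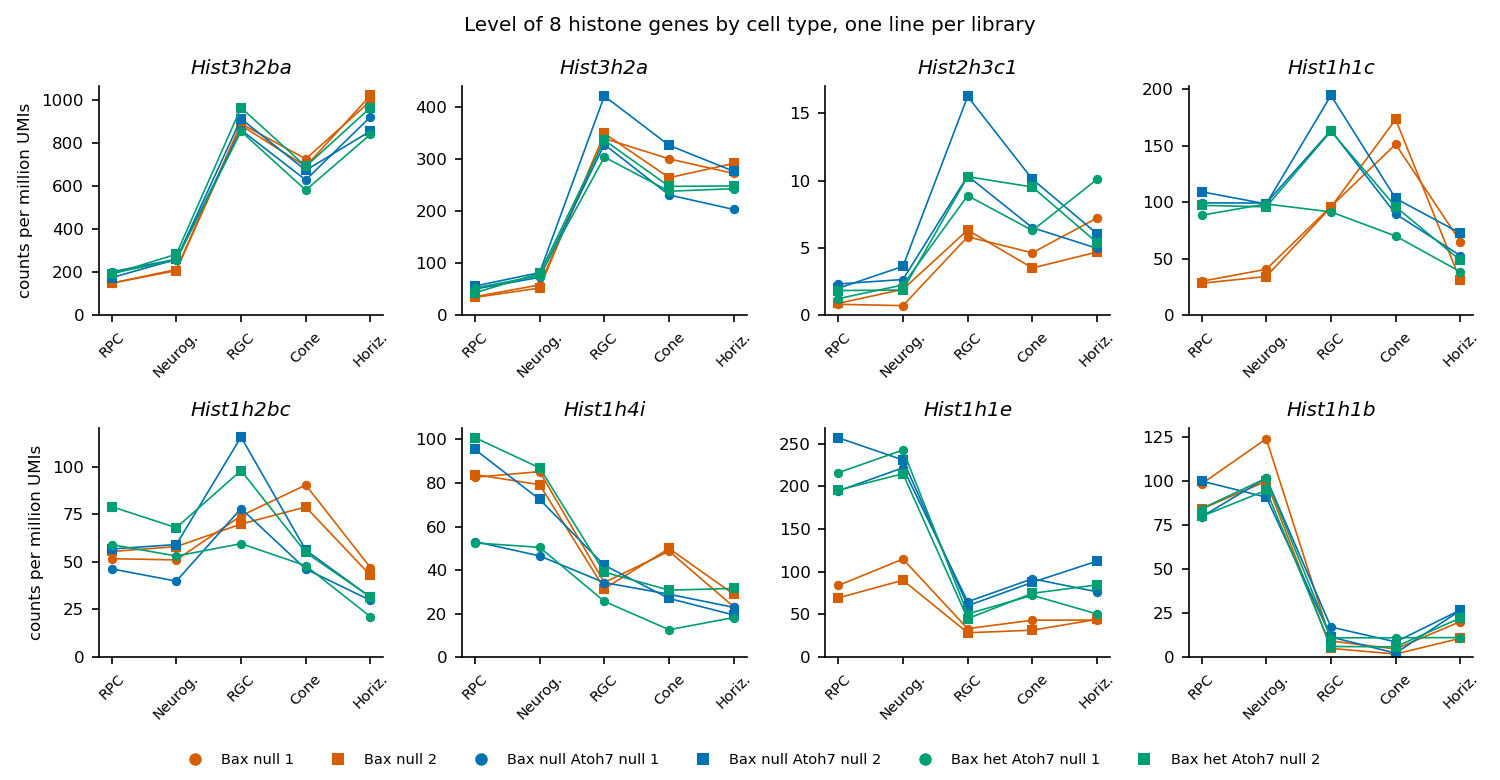
Level of 8 histone genes in counts-per-million UMIs (linear axes from 0) by cell type, from progenitors (RPC) through neurogenic cells to ganglion cells (RGC), cones and horizontal cells, with 1 line per library. Hist3h2ba, Hist3h2a and Hist2h3c1 are low in progenitors and neurogenic cells and high in the 3 neuron classes. Hist1h1b and Hist1h1e run the other way, and Hist1h1c and Hist1h2bc do neither.

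Summed over all 69 members, the UMI level was close between RPCs and ganglion cells although the genes behind it changed. The labels name poly(A) RNA, so mRNAs that end in the stem-loop without a tail may be missed. The sum is therefore no measure of all histone mRNA, and the share captured was not tested. The sum in RPCs was 1742 and 1615 CPM for Bax het Atoh7 null, 1192 and 1589 for Bax null and 1312 and 1406 in double null, and in ganglion cells 1593 and 1802, 1604 and 1606 and 1712 and 1875. The ratio of ganglion cells to RPCs was 1.17 ± 0.184 (SD, n = 6 libraries), with values on both sides of 1. Hist3h2ba and Hist3h2a together had a ratio of 5.71 ± 0.898 (SD, n = 6 libraries), from 4.70 to 6.74. All other members together had 0.376 ± 0.0899 (SD, n = 6 libraries), from 0.269 to 0.495. The same pair held 182 to 250.4 CPM in RPCs and 1155 to 1331 CPM in ganglion cells, and the other members 1009 to 1496 and 377 to 544 CPM. These other members include Hist1h2ap, at 380 and 743 CPM over all cells of the Bax null libraries and under 1 CPM in the Atoh7 null libraries. The level and ratio of the other members in Bax null therefore rest in part on this gene. The shares, cell cycle classes and clusters below include it too. The sum rests on few genes: the 12 members with the highest mean CPM held 81.8% of the 368202 member UMIs, 2 members had no UMI and 6 had fewer than 10.

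Shares of cells divided the genes in the same way. Each cell was thinned to 1000 UMIs, and shallower cells (0 in the Bax het Atoh7 null libraries, 166 and 169 in Bax null, 814 and 1261 in double null) were left out. At this depth 16.1% to 21.5% of RPCs had a UMI of the Hist3 pair, against 64.0% to 70.1% of ganglion cells, 53.9% to 65.1% of cones and 62% to 71.5% of horizontal cells. For the other members the share was 49.4% to 57.8% in RPCs, 46.0% to 61.7% in neurogenic cells, 27.3% to 33.4% in ganglion cells, 23.6% to 37.0% in cones and 19.3% to 23.0% in horizontal cells. The ranges of RPCs and neurogenic cells did not overlap with those of the neuron classes for either set. Before thinning, the pair was found in 32.8% to 64.0% of RPCs and 83.2% to 97.6% of ganglion cells, and the other members in 62.3% to 91.2% and 44.1% to 77.8%, at median depths of 1713 to 6977 and 1834 to 6683 UMIs a cell. No retinal cell is without histones, so no class here could serve as a blank, and free RNA in the droplets was not separated from RNA of the cell.

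Within the RPCs, the histone genes were then set against the cell cycle. Cells thinned to 1000 UMIs were sorted by their UMIs of a list of 33 S phase genes and a list of 40 G2/M genes, 3 or more being called high and 0 or 1 low, and all their UMIs were summed. Members other than the Hist3 pair stood at 404 and 412 CPM in cells low in both lists in the Bax het Atoh7 null libraries, 421 and 473 in Bax null and 355 and 317 in double null. In cells high in both they stood at 2550.2 and 2193, 1520.5 and 2201 and 1614 and 1774 CPM. In all 6 libraries the order was the same: lowest with both lists low, then S phase high alone (473 to 809 CPM), G2/M high alone (1109 to 1708 CPM) and both high. The Hist3 pair ran from 278 to 323 CPM in cells low in both lists to 152 to 249.99 CPM in cells high in both, and was highest with both lists low in every library. These classes are ranges of a score and not cell types, and here too mRNAs without a poly(A) tail may be missed.

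Single members followed one or the other course. Hist1h1b went from 5.82 to 26.0 CPM with both lists low to 135 to 171 CPM with both high, and Hist1h1e from 30.7 to 76.8 to 92.9 to 389.9 CPM. Hist1h1c, which was not lower in ganglion cells, stood at 25.7 to 49.9 and 29.4 to 155 CPM. Hist1h2bc had 44.2 to 98.0 CPM in cells low in both lists and 28.5 to 66.3 CPM in cells high in both. Hist3h2ba stood at 230.2 to 267 and 118 to 192 CPM. From 0 to 5 or more G2/M UMIs at 1000 UMIs a cell, the mean UMIs of members other than the pair went up 3.07 to 5.79 times in RPCs and 4.12 to 6.30 times in neurogenic cells, and for the S phase list 1.46 to 1.84 and 2.40 to 4.15 times. For the pair the same G2/M folds in RPCs were 0.678 to 1.02. In Bax null the folds of the other members include Hist1h2ap, which was read at a high level in those libraries alone. Without it, the mean UMIs in Bax null RPCs went from 0.490 to 0.567 and from 0.459 to 0.479 with the S phase list. With the G2/M list they went from 0.338 to 0.711 and from 0.318 to 0.642.

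**Figure D3:**
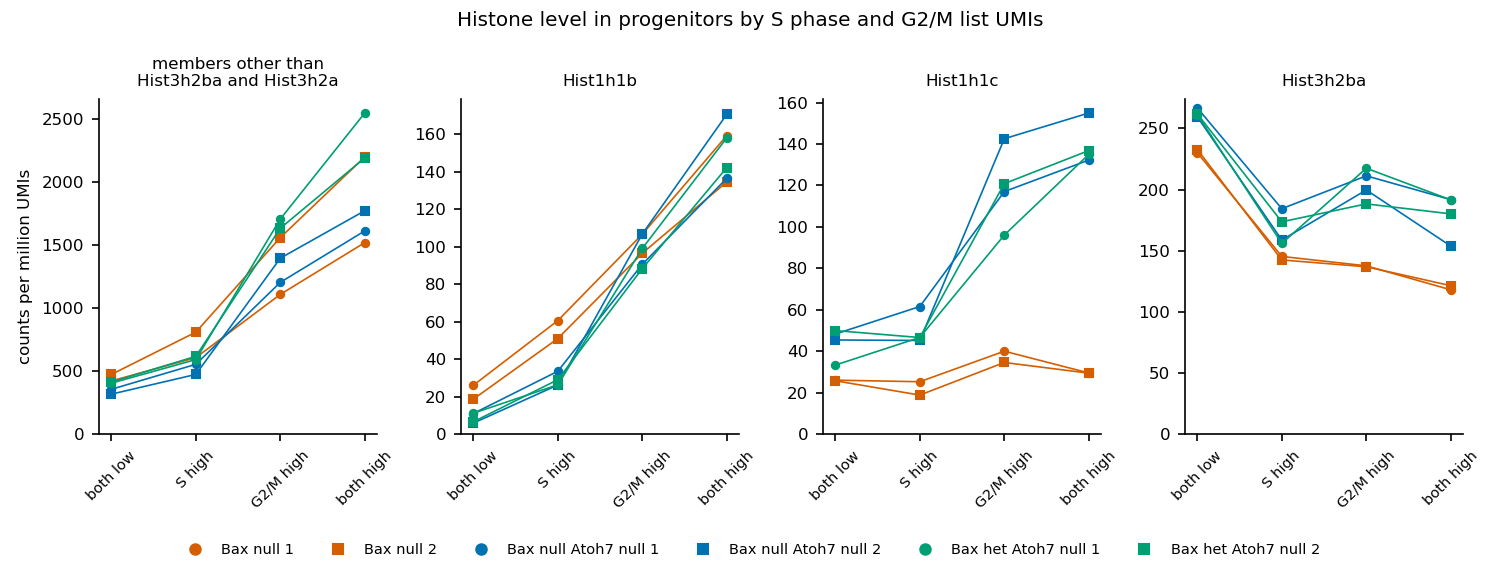
Level in counts-per-million UMIs (linear axes from 0) in progenitors grouped by S phase and G2/M list UMIs at a depth of 1000 UMIs a cell, with 1 line per library. The summed members other than the Hist3 pair and Hist1h1b climb from cells low in both lists to cells high in both in all 6 libraries, Hist1h1c does so in the 4 Atoh7 null libraries, and Hist3h2ba is highest in cells low in both.

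The authors' clusters gave the same picture for the G2/M list on a finer scale, and a weaker one for the S phase list. Over the 95 clusters with at least 200 cells in the Atoh7 null libraries, the level of members other than the Hist3 pair and the G2/M list had a Pearson correlation of 0.74, and over 32 clusters of the Bax null libraries 0.78. Over the RPC clusters alone it was 0.71 (58 clusters) and 0.63 (16 clusters). With the S phase list the correlation was 0.59 and 0.74 over all these clusters, and 0.36 and 0.37 over the RPC clusters. These correlations are descriptions, since clusters share libraries and were made from the same genes. The highest cluster was one of 571 progenitors, with 6775 CPM of members other than the pair. It held 5588 CPM of the G2/M list and 5261 CPM of the S phase list. A horizontal cell cluster of 392 cells was lowest, at 203 CPM, with 1559 CPM of the Hist3 pair. The neurogenic label was mixed in the Atoh7 null libraries. A neurogenic cluster of 712 cells held 927 CPM of the G2/M list and 532 CPM of the pair. Another of 466 cells held 18777 and 343 CPM.

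**Figure D4:**
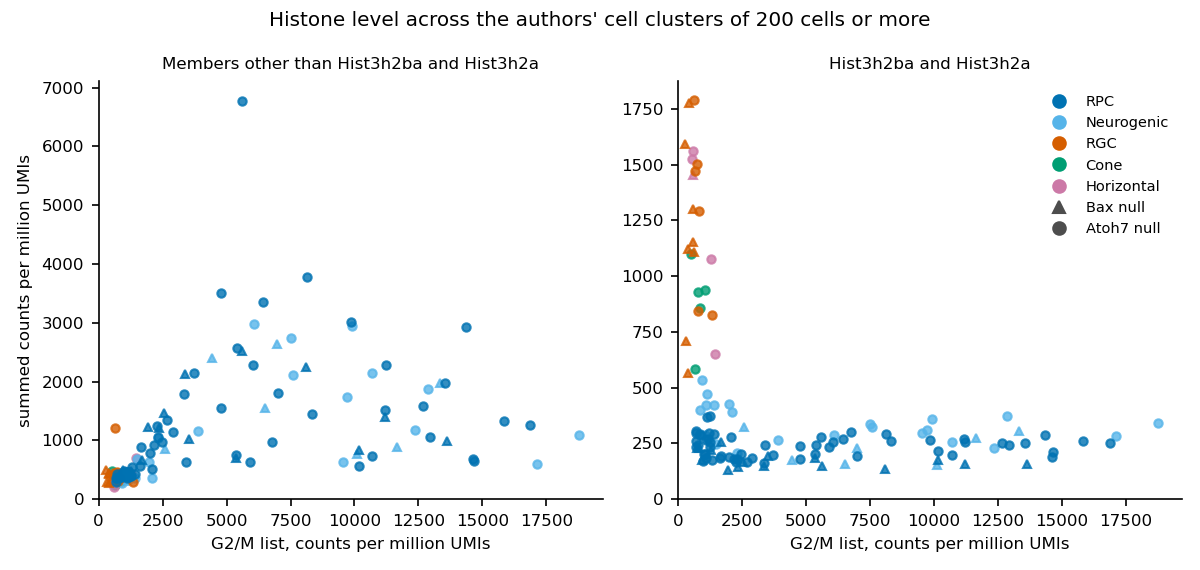
Each point is 1 of the authors' clusters with 200 or more cells, circles for the 4 Atoh7 null libraries and triangles for the 2 Bax null libraries, coloured by cell type; the horizontal axis is the G2/M list and the vertical axis the summed histone level, both in counts-per-million UMIs. On the left the members other than the Hist3 pair climb with the G2/M list, up to 6775; on the right the pair is high in clusters of neurons and low in dividing clusters.

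Genes that make, process or carry histones were compared between ganglion cells and RPCs by the same rule. Of 33 S phase genes 32 were lower in ganglion cells and of 40 G2/M genes 39. Of the 16 tested genes of histone gene transcription and mRNA processing, 5 were lower and 0 higher. They were Ccne2 (-3.04), Cdk2 (-2.89) and Ccne1 (-2.70), which form the kinase that activates Npat, then Slbp (-1.35), which binds the stem-loop, and Npat itself (-1.19), all as log2 fold changes. The other 11, among them Lsm10 (-0.24), Lsm11 (0.01), Cpsf2 (-0.28) and Sympk (-0.38) of the cleavage machinery, were not called. Of 14 histone chaperone genes 6 were lower. Of the 11 replacement histones 5 were lower and 0 higher: Cenpa of the centromere (-2.90), H2afx (-2.36), H2afz (-1.30), H1fx (-1.29) and H2afv (-1.16). H3f3a (0.45), H3f3b (0.35) and H1f0 (-0.35) were not called. As a sum, the replacement histones had a ratio of ganglion cells to RPCs of 0.859 ± 0.0466 (SD, n = 6 libraries), closer to 1 than that of the clustered members other than the Hist3 pair. In neurogenic cells 1 of the 33 S phase genes was higher than in RPCs, and no gene of the other 4 lists was called.

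Over the 30 sums of library and cell type, the 5 genes outside the members whose level most resembled the summed members were Psmd14 (r = 0.72), Usp14 (0.70), Ptma (0.67), Gbe1 (0.66) and Ap1s1 (0.65). The measure was the Pearson correlation of log2(CPM + 1) after removing each library's mean, over 5724 genes at a mean of 20 CPM or more, and the sums share libraries. Because the total mixes opposite patterns, the same search was run for single members, chosen after their values were seen. For Hist3h2ba it gave Gpm6a (0.99), Ttc3 (0.99), Syt1 (0.98), Dctn2 (0.98) and Npdc1 (0.98). For Hist1h1b it gave Hdgf (0.98), Cenpe (0.98), Chaf1b (0.98), Cdk1 (0.97) and Spc24 (0.97). Syt1 encodes a synaptic vesicle protein, Cenpe a kinetochore motor and Cdk1 the kinase of mitotic entry.

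The second question was whether the histone genes differed between genotypes within a cell type. In RPCs, some core histone genes were lower in double null than in Bax het Atoh7 null, 2 genotypes that both lack Atoh7 and differ in Bax. Of 61 tested members 20 were lower (1.95% of all 13396 genes tested) and 0 higher (0.0597% of all genes; edgeR gave 0 with an unadjusted p under 0.05 as well, and DESeq2 called 0), with a median log2 fold change of -0.93 against 0.00 for all genes. Of the H4 genes 8 of 12 tested were lower, of the H2A genes 5 of 16, of the H2B genes 5 of 16, of the H3 genes 2 of 12 and of the H1 genes 0 of 5. Neither gene of the Hist3 pair was called, and the difference between classes was not tested. Hist1h4c stood at 9.07 and 9.24 CPM in the Bax het Atoh7 null libraries and 2.89 and 2.35 CPM in double null, a log2 change of -1.87 ± 0.19 (SE; adjusted p = 0.00482). Hist1h4n had 4.54 and 3.94 against 1.2 and 0.712 CPM, a change of -2.16 ± 0.29 (SE; adjusted p = 0.0113). Hist1h4h had 48.1 and 31.3 against 17.2 and 9.46 CPM, a change of -1.62 ± 0.28 (SE; adjusted p = 0.0238). In each of these genes both double null libraries lay below both Bax het Atoh7 null libraries. Hist1h4n shares 83.2% of its 50-base stretches with Hist1h4m, so its UMIs are uncertain.

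The linker gene Hist1h1e had 216 and 196 CPM in the Bax het Atoh7 null libraries and 195 and 257 in double null, and Hist3h2ba 194 and 189 and 200.5 and 174. The log2 differences were 0.03 ± 0.12 (SE; adjusted p = 0.955) and -0.13 ± 0.11 (SE; adjusted p = 0.66), and the 2 libraries of a genotype overlapped those of the other. None of the 40 G2/M genes and 1 of the 33 S phase genes was lower in double null RPCs, and no replacement histone was called. The summed G2/M list stood at 4923 and 5279.6 CPM in the Bax het Atoh7 null libraries and 5302 and 6156 in double null. The count of 20 rests on few libraries. It was 7 without the cells of shared barcodes, 4 without Bax het Atoh7 null library 1, 1 without Bax het Atoh7 null library 2, and 36 with the replicate number as a block. With library totals as the scale it was 18, and the calls over all genes moved from 8 higher and 261 lower to 28 and 190. In neurogenic cells 8 of 58 tested members were lower in double null (1.76% of all 11670 genes). In ganglion cells 25 members were tested and 0 were called (2.34% of all 10586 genes), and 2 had an unadjusted p under 0.05, while DESeq2 called 0 as well.

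Against Bax null, differences were large and ran in both directions, for histone genes and for all genes alike. In RPCs of Bax het Atoh7 null, 45 of 61 tested members were higher than in Bax null (26.6% of all genes) and 3 lower (26.5% of all genes). In double null 31 were higher than in Bax null (26.8% of all genes) and 11 lower (27.1% of all genes; 7 without Bax null library 1). These 2 comparisons share the Bax null libraries. Replacement histones differed there too: of 11 tested, 1 was higher and 5 lower in Bax het Atoh7 null, and 2 higher and 5 lower in double null. H2afz had the lowest log2 changes among them, at -3.67 and -3.55, and Slbp had -2.89 and -2.94, in the same order. Counts were scaled by TMM, a trimmed mean of log ratios that centres most genes at 0. With library totals as the scale, a choice added after seeing the data, the median of all genes in RPCs was higher than in Bax null by 0.54 in Bax het Atoh7 null and by 0.64 in double null on the log2 scale. The calls over all genes then moved from 3570 higher and 3549 lower to 8088 and 884 in Bax het Atoh7 null, and from 3596 and 3626 to 8903 and 920 in double null. The members called became 55 higher and 2 lower, and 45 higher and 4 lower. The changes below are relative to that shift. The highest in Bax het Atoh7 null were Hist2h2bb on the identifier ENSMUSG00000105827 (log2 fold change 3.92), Hist1h2bg (3.43) and Hist1h1d (3.35), and in double null Hist1h1d (3.40), Hist2h2bb on the same identifier (3.10) and Hist1h2bg (2.63). Hist1h1d, a linker histone gene, stood in RPCs at 98.3 and 89.5 CPM in the Bax het Atoh7 null libraries, 6.89 and 5.85 in the Bax null libraries and 83.7 and 127 in the double null libraries. All 4 Atoh7 null libraries lay above both Bax null libraries.

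The lowest were Hist1h2ap and Hist2h2aa1 in both comparisons, then Hist1h1b (-0.69; -0.15 and not called with library totals) in Bax het Atoh7 null and Hist1h4b (-1.69) in double null. Hist1h2ap, an H2A gene, stood in RPCs at 0.357 and 0.685 CPM in the Bax het Atoh7 null libraries, 447 and 887 in the Bax null libraries and 0.356 and 0.285 in the double null libraries. In ganglion cells it had 56.1 and 81.0 CPM in Bax null and no UMI in the other 4 libraries, at least 42.6-fold lower in double null and at least 35.8-fold lower in Bax het Atoh7 null (floor of 3 UMIs per library). Hist2h2aa1 had 2.51 and 2.82 CPM in Bax null RPCs and no UMI in double null RPCs, at least 11.8-fold lower. Over all genes 5 exceeded 100 CPM in both Bax null libraries while lying under 1 CPM in the other 4: Hist1h2ap, Rps12-ps3, mt-Atp8, mt-Nd3 and mt-Nd4l. No gene showed the reverse, a contrast that was looked at after seeing the values. Whether the Bax null libraries were counted against the same gene set as the other 4 is not given in the sources used here and was not tested, so these folds compare the deposited counts. The Hist1h2ap transcript shares 93.1% of its 50-base stretches with Hist1h2ao. Within Bax null, Hist1h2ap was lower in ganglion cells than in RPCs like the other Hist1 genes, at 56.1 and 81.0 against 447 and 887 CPM.

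**Figure D5:**
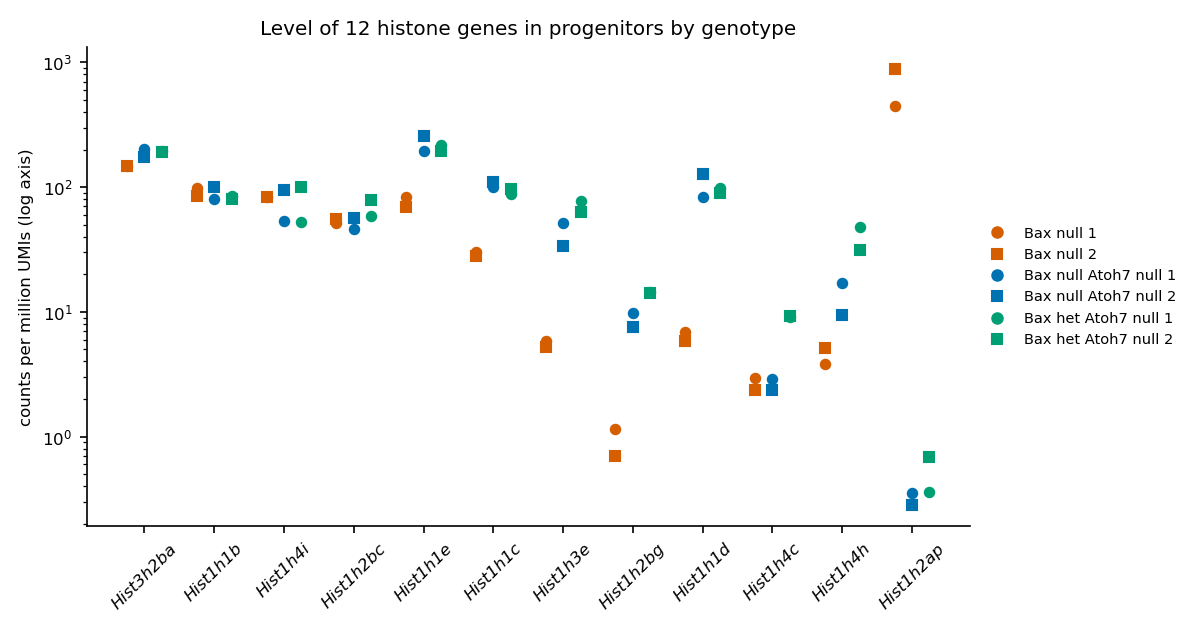
Level of 12 histone genes in progenitors, in counts-per-million UMIs on a log axis, with 1 point per library coloured by genotype. Hist1h4c and Hist1h4h are lower in both double null libraries than in both Bax het Atoh7 null libraries, Hist3h2ba and Hist1h1e overlap between these 2 genotypes, and Hist1h2ap lies under 1 in the 4 Atoh7 null libraries and at 447 and 887 in Bax null.

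In ganglion cells 25 members were tested. In Bax het Atoh7 null 8 were higher than in Bax null (25% of all genes) and 4 lower (25% of all genes), and in double null 4 were higher (26.2% of all genes) and 4 lower (26.5% of all genes), shares that do not stand far from those of all genes. The labelled ganglion cells differed in their markers as well. In Bax het Atoh7 null 9 of 10 ganglion cell markers were lower than in Bax null, 5 of 7 progenitor markers higher and 23 of 34 tested G2/M genes higher. In double null these counts, made like the others with TMM scaling, were 8, 6 and 25. Their part in the histone changes was not tested. Besides Hist1h2ap, the members with the highest and lowest changes were Hist2h2bb on ENSMUSG00000105827 (2.97 and 2.91 in Bax het Atoh7 null and double null) and Hist1h1d (2.43 and 2.73). In Bax het Atoh7 null Hist1h2ak (1.93), Hist3h2a (-0.59) and Hist1h4i (-0.47) came next, and in double null Hist2h3c2 (0.87), Hist2h4 (-0.96) and Hist3h2ba (-0.61). Without double null library 2, 8 were higher and 7 lower in double null; in Bax het Atoh7 null 7 were lower without its library 2 and 2 without Bax null library 2. For Hist3h2ba the CPM of ganglion cells overlapped between genotypes, at 852 and 962 for Bax het Atoh7 null, 888 and 880.4 for Bax null and 859 and 910.5 in double null. With library totals as the scale the median of all genes in ganglion cells moved by 0.50 and 0.63, the members called became 15 higher and 1 lower in Bax het Atoh7 null and 14 higher and 1 lower in double null, and the change of Hist3h2ba in double null was 0.0022. Hist1h4i then had 0.022 and Hist3h2a -0.10 in Bax het Atoh7 null, so that the direction of Hist3h2ba and Hist1h4i depends on the scale.

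Because the level of a histone gene differed between groups of libraries, the ratio between cell types of the same library was compared between genotypes in the last comparison. For neurogenic cells against RPCs, 0 members differed between double null and Bax het Atoh7 null (0% of all 11315 genes; in edgeR 1 member had an unadjusted p under 0.05, and DESeq2 also called 0). Between double null and Bax null 1 differed (6.78% of all genes), Hist1h1e with -0.32 ± 0.09 (SE; adjusted p = 0.0227), and between Bax het Atoh7 null and Bax null 1 (7.53% of all genes), Hist4h4 with -0.77 ± 0.23 (SE; adjusted p = 0.024). Hist1h1e was not called without either Bax null library or double null library 2, and Hist4h4 lost its call without Bax null library 1 and without each of the Bax het libraries; DESeq2 called neither. For ganglion cells against RPCs, 3 ratios were higher (10.7% of all genes) and 8 lower (8.46% of all genes) in double null than in Bax null. In Bax het Atoh7 null 0 were higher than in Bax null (9.34% of all genes; 0 with an unadjusted p under 0.05 in edgeR, and 0 by DESeq2) and 10 lower (8.98% of all genes). Between double null and Bax het Atoh7 null 1 was higher (0.106% of all genes), Hist1h2bc with 0.69 ± 0.13 (SE; adjusted p = 0.0046), and 0 lower (0% of all genes; 0 with an unadjusted p under 0.05 in edgeR, and 0 by DESeq2). The call of Hist1h2bc was lost without Bax het Atoh7 null library 1, without double null library 2, without the cells of shared barcodes (0.61) and by DESeq2, and 1 of the 3 higher ratios against Bax null was left without Bax null library 2 or double null library 1. With library totals as the scale, these member counts for ganglion cells were the same, while the calls over all genes moved from 1207 higher and 957 lower to 917 and 1238 in double null and from 1057 and 1016 to 792 and 1294 in Bax het Atoh7 null. For neurogenic cells they moved from 446 and 321 to 230 and 505 and from 415 and 437 to 280 and 552.

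The H4 genes Hist4h4 and Hist2h4 had the lowest differences of this ratio in double null against Bax null. Against Bax null, Bax het Atoh7 null had its lowest in Hist2h4, then in the H2B gene Hist1h2be (-1.76) and in Hist4h4 (-1.67). Hist4h4 stood at 3.06 and 2.75 CPM in RPCs and 6.30 and 6.05 CPM in ganglion cells of Bax null, higher in the neurons. In Bax het Atoh7 null it was 30.4 and 23.1 in RPCs and 18.8 and 15.3 in ganglion cells, and in double null 20.1 and 18.7 and 10.3 and 10.5, lower in the neurons. Hist2h4 likewise was 2.05 and 1.72 in RPCs and 4.77 and 5.96 in ganglion cells of Bax null, against 13.6 and 8.21 and 4.70 and 4.26 in Bax het Atoh7 null. In ganglion cells Hist4h4 was lowest in Bax null and its levels did not overlap between the 3 genotypes. In RPCs Hist4h4 and Hist2h4 were both lowest in Bax null. Beside these ratios, 7 of 7 progenitor markers and 27 of 40 G2/M genes had a higher ratio of ganglion cells to RPCs in double null than in Bax null, and 6 and 26 in Bax het Atoh7 null. For ganglion cell markers 9 of 10 had a lower ratio in each of these comparisons. Their part in the histone ratios was not tested.

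Among ganglion cells, Hist1h1c and Hist1h2bc were uneven between the authors' clusters. The cluster numbered 62, singled out after its values were seen, held 10.9 and 11.3% of ganglion cells for Bax het Atoh7 null, 2.43 and 1.97% for Bax null and 16.6 and 18.4% in double null. In it Hist1h1c stood at 268 and 643, 249 and 172 and 507 and 709 CPM, against 68.5 and 102, 92.4 and 94.1 and 88.7 and 81.0 CPM in the other ganglion cells, in the same order of genotypes. Hist1h2bc had 173 and 364, 103 and 162 and 216 and 316 CPM in the cluster and 44.9 and 64.0, 73.5 and 68.0 and 48.0 and 71.4 outside it. Without this cluster the ratio of Hist1h1c between ganglion cells and RPCs fell from 1.03 and 1.68 to 0.774 and 1.05 in Bax het Atoh7 null and from 1.65 and 1.78 to 0.892 and 0.741 in double null, but was 3.09 and 3.34 in Bax null. The ratio of Hist3h2ba without the cluster was 4.11 to 5.94, so the higher level of that gene did not rest on it. In the 4 Atoh7 null libraries the cluster also held more Atf3, a stress-induced transcription factor, at 109 and 135 CPM in the Bax het Atoh7 null libraries and 236 and 284 CPM in double null, against at most 5.90 CPM in the other ganglion cells. In Bax null its Atf3 was 11.9 CPM, from 3 UMIs, in library 1 and 0 in library 2, against 0.0978 and 0.468 CPM in the other ganglion cells.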

How the data were processed

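Droplet single-cell RNA-seq was measured in 6 libraries of E14 mouse retina. The authors deposited raw UMI counts for 27998 genes, with a label of library, cell type and cluster for each cell, and Cell Ranger 1.2.1 and the build mm10 are named in the submitters' processing notes. The filters on cells are not given in the sources used here. The deposited total of each cell equalled its sum of counts in all 67050 cells. The cell table also holds 2 libraries that belong to no sample of the series, with 26078 cells, and these were not used.

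Counts were summed per library and cell type, which makes the library the unit of replication. After filterByExpr and TMM scaling, all genes were tested by quasi-likelihood F tests of edgeR 4.0.16 (R 4.3.3), two-sided, with Benjamini-Hochberg adjustment over all genes tested. Cell types were compared with the library as a block (called at an adjusted p under 0.05 and at least 2-fold), genotypes with the group as the only term (called at an adjusted p under 0.05), and ratios between cell types by the interaction of type and group. The standard error is the absolute log2 fold change divided by the square root of F. Levels are counts-per-million UMIs of the library's cell type (CPM), and they are not divided by length, since each 3′ tag counts 1 molecule. Bounds against genes with no UMI use a floor of 3 UMIs per library and cover counting error only.

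Doublets were not called and were kept, and an alternative leaves out the 8% of cells with the most UMIs in each library. Other alternatives were RLE size factors, DESeq2 1.42.0, no filter, no library term, the replicate number as a block, sums thinned to the smallest sum, cells under 1000 UMIs left out, subsets of libraries, each library left out, and, added after seeing the data, shared barcodes left out, library totals as the scale, the Hist3 pair apart from the other members, the 4 classes of S phase and G2/M lists, and 1 ganglion cell cluster left out. The fits were tested on simulated data. Members and gene lists were chosen with earlier results of these data known. Genes were named by rule: the 12 members with the highest mean CPM, and for each comparison up to 3 called members with the highest and 3 with the lowest change; genes outside the members come from the lists. Members named beyond this rule (Hist2h2be, Hist4h4 and Hist2h4 in the ganglion cell comparison, and those shown for sequence) were chosen after their values were seen. Sequences came from GENCODE transcripts and RefSeq promoters; near copies were counted by shared 50-base stretches.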

Additional observations from a re-analysis of the deposited data

Results flagged for a closer look

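Among the members named by rule, the ratio between 2 cell types of the same library differed between genotypes for 12 combinations of gene and comparison, by edgeR's interaction test adjusted over all genes. Values are differences of log2 ratios. For neurogenic cells against RPCs these were Hist4h4 in Bax het Atoh7 null, relative to Bax null (-0.77, adjusted p = 0.0240) and Hist1h1e in double null against Bax null (-0.32, adjusted p = 0.0227).

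For ganglion cells against RPCs, Bax het Atoh7 null differed from Bax null in Hist2h4 (-2.67, adjusted p = 8.77e-08), Hist1h2be (-1.76, adjusted p = 3.97e-04) and Hist4h4 (-1.67, adjusted p = 1.51e-06). Double null differed from Bax null in the same 3 genes, Hist4h4 (-1.93, adjusted p = 5.19e-07), Hist2h4 (-1.61, adjusted p = 1.82e-03) and Hist1h2be (-1.48, adjusted p = 3.60e-03), all lower. Higher there were Hist1h1b (1.14, adjusted p = 2.23e-03), Hist1h2bc (0.53, adjusted p = 2.29e-04) and Hist1h4i (0.48, adjusted p = 0.0151). Both comparisons share the Bax null libraries, whose genotype cannot be told apart from their depth and mitochondrial share.

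Double null differed from Bax het Atoh7 null in Hist1h2bc (0.69, adjusted p = 4.60e-03), and that call was lost without the cells of shared barcodes and under DESeq2.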

How the results depend on the processing

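With no filter on low counts, 67 members were tested. Of these 50 were lower than RPCs in ganglion cells and 50 in cones, and 50 were higher in neurogenic than in ganglion cells. In RPCs 10 of 67 were lower in double null than in Bax het Atoh7 null. With sums thinned to the smallest sum, which lowers depth, 24 members were tested in place of 41. Of these 2 were higher and 18 lower in ganglion cells, 2 and 18 in cones and 2 and 20 in horizontal cells. In neurogenic cells 0 were higher against RPCs, and 17 were higher and 2 lower against ganglion cells. In the 4 Atoh7 null libraries alone 0 of 46 tested members were higher in neurogenic cells against RPCs. In the 2 Bax null libraries alone 52 members were tested, and 7 were higher in ganglion cells and 7 in cones. The other sign appeared for Hist2h4 in ganglion cells (-0.13 without the library term, -0.86 in the 4 Atoh7 null libraries, -0.19 without Bax null library 2, in a range of -0.19 to 0.52 over libraries left out) and for Hist4h4 (1.02 in the 2 Bax null libraries); neither had been called.

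Whether the replicate numbers pair the libraries is not given in the labels. Over 14284 genes, deviations of same-numbered libraries had a correlation of 0.32 between Bax het Atoh7 null and double null. It was 0.0085 between Bax het Atoh7 null and Bax null, and -0.077 between Bax null and double null. With the replicate number as a block, 36 members were lower in double null than in Bax het Atoh7 null RPCs and 2 had a lower neurogenic ratio in double null than in Bax null; the other counts of members stayed within 1.5 times. Without the cells of shared barcodes these 2 counts were 7 and 0, 2 members were higher in double null than in Bax null ganglion cells, and 0 had a higher ganglion cell ratio in double null than in Bax het Atoh7 null. DESeq2 gave 0 for both lower neurogenic ratios against Bax null, 1 higher ganglion cell ratio in double null than in Bax null and 0 against Bax het Atoh7 null.

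With library totals as the scale, members lower than in Bax null were 4 in double null RPCs, and in ganglion cells 14 were higher and 1 lower in double null and 15 higher and 1 lower in Bax het Atoh7 null; Hist3h2ba turned to 0.0022 and Hist1h4i to 0.022, and 2 members had a lower neurogenic ratio in double null. The lower neurogenic ratios in double null numbered 2 with RLE size factors, with no filter, without the 8% of cells with the most UMIs and with only the 4 libraries compared. Those in Bax het Atoh7 null numbered 2 with no filter and with only the 4 libraries compared. Without the 8% of cells with the most UMIs, and likewise with thinned sums, 2 members were higher than in Bax null in double null ganglion cells and 4 in those of Bax het Atoh7 null. The members tested there numbered 16 without these cells and 20 with thinned sums. With only the 4 libraries compared there were 13 of 32 tested higher in Bax het Atoh7 null ganglion cells and 5 of 61 lower in its RPCs. The cause of these changes was not tested.

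Leaving out 1 library in turn, members higher in neurogenic cells than in RPCs ranged from 0 to 1. Members lower in double null than in Bax het Atoh7 null RPCs ranged from 1 to 30, and those lower in RPCs against Bax null from 7 to 11 in double null and from 3 to 5 in Bax het Atoh7 null. In ganglion cells against Bax null, 3 to 8 were higher and 3 to 7 lower in double null, and 6 to 12 higher and 2 to 7 lower in Bax het Atoh7 null; double null against Bax het Atoh7 null gave 0 to 1 higher. Lower neurogenic ratios ranged from 0 to 2 in both comparisons with Bax null. Higher ganglion cell ratios ranged from 1 to 3 for double null against Bax null, and from 0 to 1 both for Bax het Atoh7 null against Bax null and for double null against Bax het Atoh7 null. A lone library left in a group was assumed to vary like the others. Of 1247 repeats of 78 results for single members, 1183 kept their sign and their call, 54 lost the call, 4 gained it and 6 changed sign.

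Thinned to 2000 UMIs a cell, the mean share of cells with a UMI of the Hist3 pair was 34.4% in RPCs, 43.8% in neurogenic cells, 86.2% in ganglion cells, 77.3% in cones and 79.6% in horizontal cells, and for the other members 72.7%, 76.2%, 46.4%, 47.0% and 41.8%. The fold of members other than the pair, Hist1h2ap included, with the S phase list was 2.09. Depth limits the low members most: 28 of the 69 were not tested between cell types.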
